A study of Mus musculus with 14 samples.

Results

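The genes described here encode the ligands and receptors of axon guidance: ephrins and Eph receptors, semaphorins and plexins, netrins and Unc5 receptors, and slits and Robo receptors. They were taken by name from 6 lists of ATAC-seq regions that the authors called as higher or lower between groups. Symbols beginning with Efna, Efnb, Epha, Ephb, Sema, Plxn, Ntn, Slit, Robo or Unc5 were kept, leaving out Efnb2, Ephb4, Robo4, Unc5b and opposite-strand RNAs, so counts of Eph, Unc5 and Robo genes are of the others. In all, 47 genes with 78 regions met this rule, of 6687 genes and 9954 regions in the lists, regions being counted separately in each comparison. The same name rule takes 72 protein-coding genes from the RefSeq gene table, so 25 of them lay near no listed region. Of all 21900 protein-coding genes of that table, 16034 lay near none. Of the 72, 20 belong to the ephrin system, 29 to the semaphorin system, 10 to the netrin system and 6 to the slit system. The other 7 share only a prefix: the 6 Slitrk genes, which encode synaptic adhesion proteins and not slits, and Unc50.

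ATAC-seq marks open chromatin, in which the Tn5 transposase can cut. The cells were erythro-myeloid progenitors, blood precursors of the yolk sac, sorted from C57BL/6 mouse embryos at E10.5 with 500 cells a sample. Every embryo carried floxed Ezh2, which encodes the enzyme of the Polycomb complex PRC2. The groups used here were 3 Tie2 WT samples (Ezh2fl/fl; Tie2-Cre+/+, without the transgene), 5 Tie2 KO samples (Ezh2fl/fl; Tie2-CreTg/+) and 3 Vav KO samples (Ezh2fl/fl; Vav-CreTg/+). As background, the Tie2 promoter drives Cre in endothelial cells and so also in their blood progeny, whereas the Vav promoter drives it in blood cells. Ezh2 itself is in none of the lists, so its loss could not be checked here. The lists give 1 log2 fold change and 1 adjusted p-value for each region and no value for a sample, so the depth and the spread between embryos are unknown, and the identity of the cells could not be checked from marker levels. Fold changes and adjusted p-values below are all those of the authors' deposited table, and the largest adjusted p of an axon guidance region was 0.00628. Every listed region covers a gene start or ends within 5 kb upstream of one. A gene near no listed region is therefore not shown to be unchanged.

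In the embryo, growing axons are steered by these proteins through attraction and repulsion, and the same proteins guide migrating cells and shape blood vessels. Ephrins are membrane-bound ligands of the Eph receptor tyrosine kinases. Semaphorins are secreted or membrane-bound ligands of plexins, the secreted class 3 acting mostly through neuropilin co-receptors. Netrins bind Dcc, Neo1 and the Unc5 receptors, and slits are large secreted ligands of the Robo receptors. PRC2 methylates histone H3 at many developmental genes that a cell does not use, often at promoters rich in the CG dinucleotide.

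To show what these gene starts look like, RefSeq promoter windows (GRCm38.p6, the assembly also called mm10) are printed for the gene of each system with the largest rise over its start in Tie2 KO against Tie2 WT. They hold 250 bases before and 50 bases after the gene start, 5′ to 3′ on the strand of the gene, with each CG dinucleotide in capitals. All 300 bases of each lay inside the higher region. Slit3 (chr11:35121206-35121505, plus strand) has 41 CG, Sema3c (chr5:17574566-17574865, plus strand) 42, Unc5a (chr13:54949161-54949460, plus strand) 37 and Epha6 (chr16:60605482-60605781, minus strand) 15.
Slit3: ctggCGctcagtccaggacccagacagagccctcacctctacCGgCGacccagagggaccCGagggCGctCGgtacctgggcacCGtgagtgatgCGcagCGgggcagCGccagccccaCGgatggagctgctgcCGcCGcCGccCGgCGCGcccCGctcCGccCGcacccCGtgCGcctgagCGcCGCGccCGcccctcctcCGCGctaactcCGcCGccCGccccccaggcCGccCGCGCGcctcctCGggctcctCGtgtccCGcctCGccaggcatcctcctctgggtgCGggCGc
Sema3c: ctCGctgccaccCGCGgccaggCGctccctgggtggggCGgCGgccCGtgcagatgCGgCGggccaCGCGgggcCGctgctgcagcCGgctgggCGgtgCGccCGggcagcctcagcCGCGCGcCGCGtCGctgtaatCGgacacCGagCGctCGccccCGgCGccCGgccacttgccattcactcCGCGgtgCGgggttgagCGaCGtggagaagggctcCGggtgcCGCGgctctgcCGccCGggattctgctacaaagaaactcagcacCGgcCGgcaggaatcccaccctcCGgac
Unc5a: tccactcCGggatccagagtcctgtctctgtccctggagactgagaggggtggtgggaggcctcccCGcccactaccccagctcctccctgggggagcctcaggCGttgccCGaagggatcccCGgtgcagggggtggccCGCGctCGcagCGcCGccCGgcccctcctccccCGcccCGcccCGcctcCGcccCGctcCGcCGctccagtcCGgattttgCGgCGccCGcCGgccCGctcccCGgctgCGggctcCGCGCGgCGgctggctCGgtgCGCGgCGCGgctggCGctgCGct
Epha6: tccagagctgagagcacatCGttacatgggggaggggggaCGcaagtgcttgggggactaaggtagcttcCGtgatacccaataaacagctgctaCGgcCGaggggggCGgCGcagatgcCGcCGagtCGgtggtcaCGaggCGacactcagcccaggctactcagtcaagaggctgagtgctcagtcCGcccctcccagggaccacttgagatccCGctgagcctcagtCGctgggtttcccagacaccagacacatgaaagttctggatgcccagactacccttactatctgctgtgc
The windows of Ntn5 (chr7:45683772-45684071, plus strand) and Sema3a (chr5:13396534-13396833, plus strand) have 3 and 2 CG. These are the windows with the lowest CG content among the family genes near no listed region, and they do not stand for that group. Others in no list have many CG, such as Ephb6 with 34 and Unc50 with 31, and Sema4d, near a higher region, has 3. Plxnb3 (chrX:73756853-73757152, plus strand), shown because its start lay in a lower region and chosen after its values were seen, has 4.
Ntn5: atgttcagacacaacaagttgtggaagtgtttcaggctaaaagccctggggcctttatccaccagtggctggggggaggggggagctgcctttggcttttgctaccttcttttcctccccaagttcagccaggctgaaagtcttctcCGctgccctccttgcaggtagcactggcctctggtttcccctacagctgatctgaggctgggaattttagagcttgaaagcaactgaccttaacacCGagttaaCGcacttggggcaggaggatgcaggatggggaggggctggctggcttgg
Sema3a: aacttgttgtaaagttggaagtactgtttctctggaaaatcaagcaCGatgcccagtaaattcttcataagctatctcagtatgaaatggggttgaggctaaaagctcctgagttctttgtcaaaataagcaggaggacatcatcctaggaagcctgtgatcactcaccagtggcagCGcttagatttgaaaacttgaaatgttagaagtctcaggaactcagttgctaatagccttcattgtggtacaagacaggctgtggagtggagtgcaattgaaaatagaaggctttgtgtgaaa
Plxnb3: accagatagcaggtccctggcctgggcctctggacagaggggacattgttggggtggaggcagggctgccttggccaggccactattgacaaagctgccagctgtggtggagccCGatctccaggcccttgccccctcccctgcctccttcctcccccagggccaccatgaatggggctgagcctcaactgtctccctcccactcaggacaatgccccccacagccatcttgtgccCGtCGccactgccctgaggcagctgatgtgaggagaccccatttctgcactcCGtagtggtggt
Of 17486 protein-coding genes with a window, 94.8% have at least 1 CG on either strand, 47.4% have at least 15, 6.87% have at least 37 and 29.2% have at most 4.

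Tie2 KO, in which Tie2-Cre is to delete Ezh2, was compared with Tie2 WT. Every Tie2 KO sample carries the Cre transgene and no Tie2 WT sample does. Effects of the transgene and of Ezh2 deletion therefore cannot be told apart here. Where axon guidance genes were listed, accessibility was mostly higher, and most of them were not listed: 27 of 72 genes (37.5%) lay near a higher region, against 11.5% of all protein-coding genes. Lower regions lay near 2 of 72 (2.78%), against 2.51%. Near a higher region lay 4 of 6 slit and Robo genes, 10 of 20 ephrin and Eph genes, 4 of 10 netrin and Unc5 genes and 8 of 29 semaphorin and plexin genes. These are 66.7%, 50%, 40% and 27.6%, and each is above the share of all protein-coding genes. The netrin system genes were 2 of 2 netrin-G genes, 1 of 4 netrin genes (25%) and 1 of 3 Unc5 receptor genes (33.3%). Its share therefore depends on counting the netrin-G genes, and without them it is close to that of the semaphorin system. The differences between the systems were not tested, and the slit system is small. In size the rises were ordinary: the 30 higher regions had a median log2 fold change of 0.945, against 1.02 for all 2959 higher regions, per the authors' deposited table. By fold change, 13 of the 30 stood in the upper part of the list above its median, and 2 in its top 10%.

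**Figure D1:**
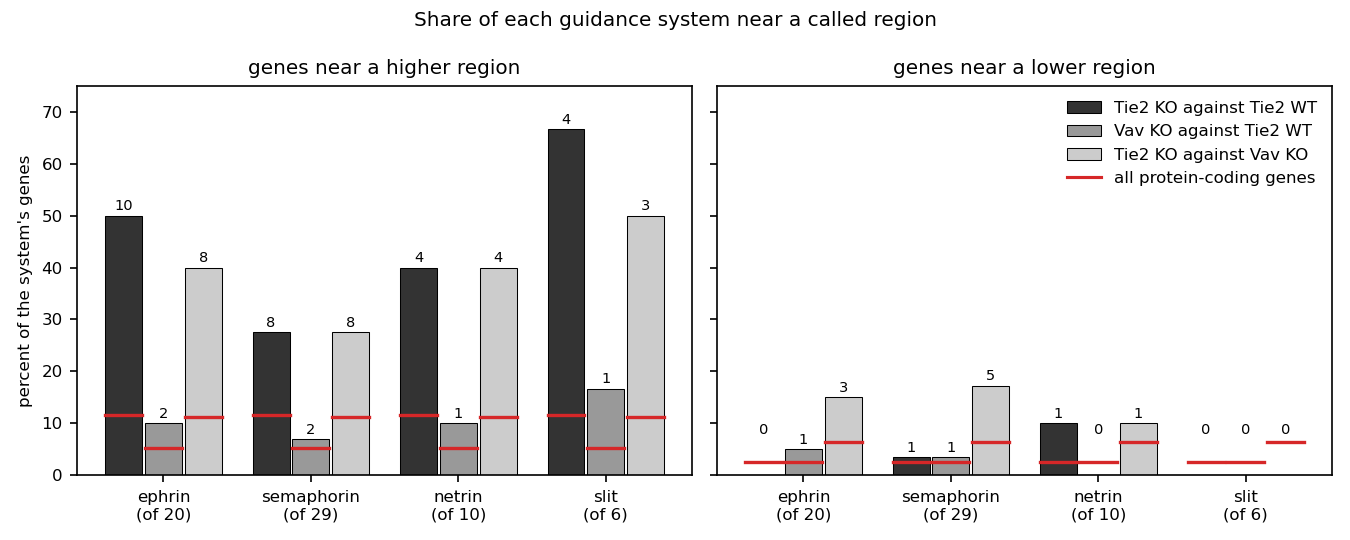
Percent of the genes of each system paired with a higher (left) or lower (right) region, with the number of genes above each bar, the size of the system under it and the share of all protein-coding genes as a red line. In both comparisons of Tie2 KO the higher shares stand above the red line in all 4 systems, and they do so in Vav KO against Tie2 WT too, where each rests on 1 or 2 genes.

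The slit system held the largest rise of the family. The region over the start of Slit3, a secreted Robo ligand, reached a log2 fold change of 2.48 per the authors' deposited table (adjusted p = 9.1e-08). It spans chr11:35120002-35123700 in mm10, from -1454 to 2244 bp around the gene start, and ranked 10 of 2959 higher regions. Robo1, Robo2 and Robo3, which encode receptors of the Robo family, were each near a higher region. Their log2 fold changes per the authors' deposited table were 1.19 at Robo1 (chr16:72662202-72663200, adjusted p = 6.91e-05), 0.83 at Robo2 (adjusted p = 9.37e-06) and 0.75 at Robo3, the last a receptor needed for commissural axons to cross the midline. Each of these regions covered the gene start. Slit1 and Slit2 lay near no region listed in this comparison. Of the Slitrk genes, Slitrk3 lay in a region with a log2 fold change of 2.34 per the authors' deposited table (chr3:73056202-73058600, adjusted p = 1.21e-06), rank 17 of the list, and the other 5 were not listed.

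In the ephrin system the receptors were listed more often than the ligands in this comparison. Of 13 Eph receptor genes 8 lay near a higher region (61.5%), with log2 fold changes from 0.6 to 1.52 per the authors' deposited table, and of 7 ephrin genes 2 did. That difference in share was not tested. Among receptors for the A class, 6 of 9 were near a higher region. The largest was Epha6 at 1.52 (chr16:60604602-60607400, adjusted p = 0.000124), followed by Epha10, whose kinase domain is inactive, at 1.2 (chr4:124880502-124882600, adjusted p = 1.22e-06), per the authors' deposited table. The Epha10 region also overlapped the protein-coding gene Maneal. Epha2 had a region over its start at 0.67 and a second one upstream at 1.09 (chr4:141298602-141300400, adjusted p = 4.25e-05) per the authors' deposited table. The values of Epha8, Epha5 and Epha3 were 0.97, 0.8 and 0.6 per the authors' deposited table, each over the gene start. Of 4 B-class receptor genes, Ephb1 was listed at 0.79 and Ephb2 at 0.72 per the authors' deposited table, the Ephb2 region ending 4989 bp upstream of the start. The ligand genes Efna1 and Efna2, which encode lipid-anchored ephrins, stood at 0.62 and 0.64 per the authors' deposited table. Efnb1 and Efnb3, of the B class, were not listed in this comparison.

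Of the 4 systems, with netrin-G genes counted in the netrin system, semaphorins and plexins had the smallest share of genes near a higher region. A plexin gene was lower. Of 20 semaphorin genes 6 lay near a higher region. The secreted class 3 ligands Sema3f and Sema3c led with log2 fold changes of 1.37 (chr9:107710702-107711700, adjusted p = 3.35e-05) and 1.3 (chr5:17573702-17575900, adjusted p = 1.11e-06) per the authors' deposited table. Sema3c was higher over its start, whereas the Sema3f region ended 226 bp before it. The transmembrane ligands Sema5b, Sema4d, Sema4f and Sema4c followed at 1.09, 1.07, 0.98 and 0.92 per the authors' deposited table, Sema4c having a second region at 0.85. The adjusted p of Sema5b, 6.69e-08, was the smallest of the family. Sema4d is also known as CD100, a semaphorin of immune cells, and its region lay 3854 bp upstream. Of 9 plexin genes, Plxna4, a receptor that works with neuropilins, and Plxnb1, the receptor of Sema4d, were higher at 0.8 and 0.79 per the authors' deposited table. Plxnb3, a receptor of Sema5a, went the other way with 2 lower regions. One covered its start at -1.38 (chrX:73756002-73757200, adjusted p = 0.00174) and the other lay 1959 bp upstream at -1.08 (chrX:73753502-73755100) per the authors' deposited table.

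In the netrin system, Ntng1, Ntng2, Ntn3 and the receptor gene Unc5a lay near a higher region and Unc5cl near a lower one. Netrin-Gs are lipid-anchored relatives of netrins that bind other partners than Dcc and Unc5. Ntng2 had regions at 1.17 and 1.06 (chr2:29248102-29249400 and chr2:29249502-29251800) per the authors' deposited table, and both lay over the noncoding gene 6530402F18Rik next to it. Ntng1 stood at 0.63 over its start per the authors' deposited table. Unc5a, a repulsive netrin receptor gene, stood at 1.04 in a region 3599 bp wide (chr13:54948102-54951700, adjusted p = 2.14e-07) per the authors' deposited table. Of the 4 netrin genes proper, Ntn3 alone was listed, at 0.87 and 2414 bp upstream per the authors' deposited table. Unc5cl, which encodes an UNC5C-like death-domain protein, had the other lower region of the family, at -0.82 (chr17:48451102-48452300, adjusted p = 1.61e-05) per the authors' deposited table. That region lay over Tspo2, a gene known from red cell precursors, and the authors paired it with both genes.

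**Figure D2:**
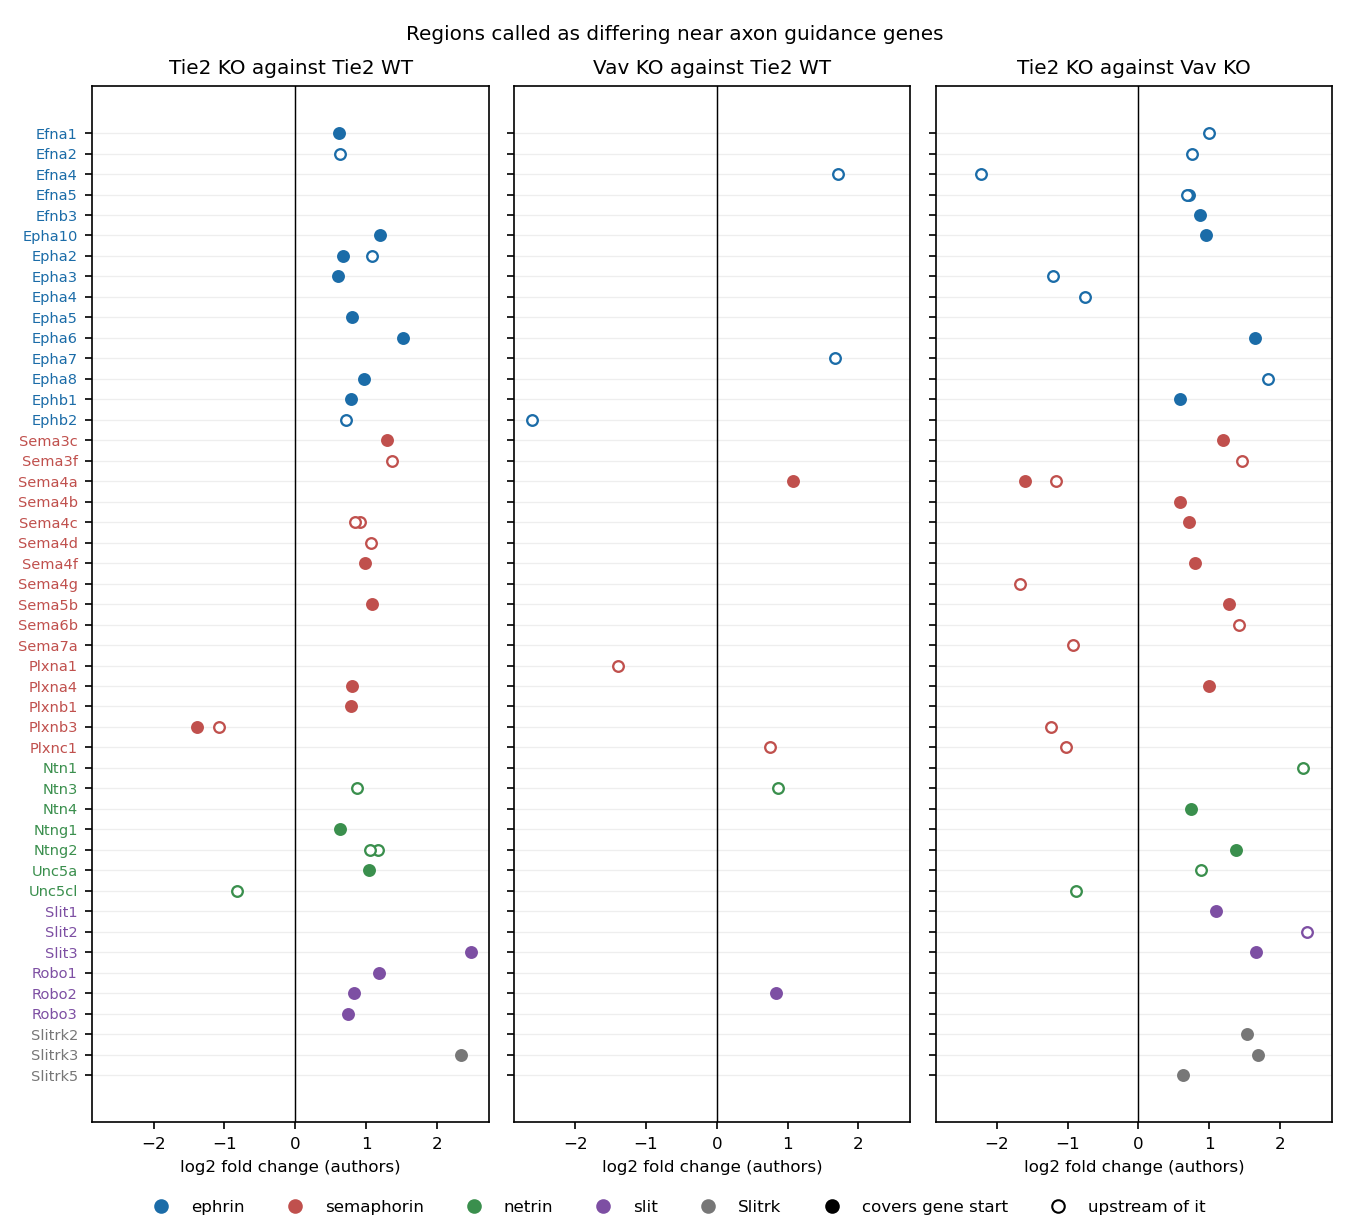
Log2 fold change (x axis) of every listed region of the 47 genes (rows, coloured by system) in the 3 comparisons; filled points cover the gene start and open points lie upstream of it. Higher regions dominate for Tie2 KO against Tie2 WT, led by Slit3 at 2.48, and open points make up most of the lower side against Vav KO.

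To see where the knockouts differ, Tie2 KO was set directly against Vav KO. This uses the same Tie2 KO samples as the comparison above, so its values stand beside those and do not repeat them independently. The knockouts come from different Cre lines, and effects of the line and of Ezh2 deletion cannot be told apart. Here 26 of 72 genes (36.1%) lay near a region higher in Tie2 KO, against 11.1% of all protein-coding genes, and 9 of 72 (12.5%) near a lower one, against 6.35%. No gene lay near both. The median log2 fold change of the 27 higher regions was 0.99 against 1.16 for the whole list, and that of the 10 lower regions -1.185 against -1.12, per the authors' deposited table.

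All 3 slit ligand genes were near a higher region in this comparison, and no Robo gene was listed. Their log2 fold changes were 2.38 at Slit2 (chr5:47981302-47982700, adjusted p = 9.61e-07), 1.66 at Slit3 (chr11:35120402-35123700, adjusted p = 3.73e-05) and 1.1 at Slit1 (chr19:41743202-41744800, adjusted p = 8.17e-05) per the authors' deposited table. Slit2 ranked 111 of 2873 higher regions, and its region ended 454 bp upstream of the start used by the authors, inside the RefSeq gene body. The region of Slit1 was also paired with the predicted gene Gm19424. Against Tie2 WT, Slit3 was listed together with the 3 Robo genes, so Slit3 alone of the slit system was higher in both comparisons. Whether the effects differ between the comparisons was not tested. Among Slitrk genes, Slitrk3, Slitrk2 and Slitrk5 stood at 1.69, 1.53 and 0.63 per the authors' deposited table.

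Ephrin system genes fell on both sides. Unlike against Tie2 WT, the ligand genes had the larger share near a higher region, 57.1% against 30.8% of the receptor genes. That turn was not tested. Of 7 ephrin ligand genes 4 were near a higher region, Efna1 at 0.99, Efnb3 at 0.87, Efna2 at 0.75 and Efna5 at 0.72 and 0.69 per the authors' deposited table. Of 13 receptor genes 4 were higher, led by Epha8 at 1.83 (chr4:136957502-136958500, adjusted p = 5.73e-05) and Epha6 at 1.64 (chr16:60604802-60607300, adjusted p = 2.75e-05), with Epha10 at 0.96 and Ephb1 at 0.59, per the authors' deposited table. Lower in Tie2 KO were Efna4 at -2.23 (chr3:89342402-89343400, adjusted p = 1.23e-06), Epha3 at -1.21 and Epha4 at -0.75 per the authors' deposited table. The 3 lower regions lay upstream of the starts, by 4373, 444 and 1413 bp. At Epha3 the region that was higher against Tie2 WT covered the start, so the 2 calls concern different stretches of DNA. The same holds for Efna1, where the region higher than in Tie2 WT covered the start and that higher than in Vav KO lay 4250 bp upstream. The Efna4 region lay over Adam15, a neighbouring metalloprotease gene.

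Semaphorin genes were listed 8 times as higher and 5 times as lower. The higher ones were led by Sema3f at 1.47 (adjusted p = 4.48e-05), Sema6b at 1.42 (adjusted p = 8.53e-06), Sema5b at 1.28 and Sema3c at 1.19, with Plxna4 at 0.99, Sema4f at 0.8, Sema4c at 0.71 and Sema4b at 0.59, per the authors' deposited table. This Sema4c region covered the start and did not overlap the Sema4c regions higher than in Tie2 WT, which lay upstream. The lower ones were Sema4g at -1.67 (adjusted p = 0.00108), Sema4a at -1.6 (adjusted p = 0.000462) and -1.16, Plxnb3 at -1.24, Plxnc1 at -1.03 and Sema7a at -0.93 per the authors' deposited table. Sema4a and Sema7a encode semaphorins also known from immune cells, and Plxnc1 encodes the plexin that binds Sema7a. Only the stronger Sema4a region (chr3:88460602-88461600) covered a gene start among the 6 lower regions of the system. The Sema4g region lay 4943 bp upstream and over Slf2, a neighbouring DNA repair gene.

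Of the netrin system, Ntn1 had the largest value, a log2 fold change of 2.33 per the authors' deposited table, in a region 2975 bp upstream (chr11:68389802-68390800, adjusted p = 3.36e-05). Ntn1 encodes the prototype netrin, which attracts axons through Dcc and repels them through Unc5 receptors. Ntng2 at 1.38 (adjusted p = 4.78e-05), Unc5a at 0.89 and Ntn4, a laminin-binding netrin, at 0.74 were also higher per the authors' deposited table. Unc5cl was lower at -0.88 per the authors' deposited table, again over Tspo2.

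The third comparison set Vav KO against Tie2 WT. Its controls come from another Cre line than its knockouts, and the effects of line and genotype cannot be told apart. Few axon guidance genes were listed: 6 of 72 (8.33%) lay near a higher region, against 5.29% of all protein-coding genes, and 2 of 72 (2.78%) near a lower one, against 2.59%. Both shares are near those of all genes. The higher regions lay at Efna4 at 1.71 (chr3:89342602-89345000, adjusted p = 3.59e-07), Epha7 at 1.67 (chr4:28808002-28809100), Sema4a at 1.07, Ntn3 at 0.86, Robo2 at 0.83 and Plxnc1 at 0.75 per the authors' deposited table. Their median log2 fold change was 0.965, against 1.35 for the 1313 higher regions of the list, per the authors' deposited table. Regions of Sema4a and Robo2 covered the gene start, and the other 4 ended between 2923 and 4573 bp upstream. Lower were Ephb2 at -2.61 (chr4:136839702-136840900, adjusted p = 3.01e-05), rank 23 of 630, and Plxna1 at -1.4 (chr6:89364702-89365700) per the authors' deposited table. Ephb2 encodes a receptor of the B class and Plxna1 a receptor for class 3 semaphorins with neuropilins. The Ephb2 region lay over the noncoding gene Gm31536, as did the neighbouring region that was higher in Tie2 KO.

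Vav KO enters the direct comparison of the knockouts as well, so the same samples stand behind the following pairs of values per the authors' deposited table. Efna4 stood at 1.71 in Vav KO against Tie2 WT and at -2.23 in Tie2 KO against Vav KO, both in the body of Adam15. Sema4a stood at 1.07 and -1.6, and Plxnc1 at 0.75 and -1.03, per the authors' deposited table. Because the Vav KO samples enter with opposite sign, the reversal is no independent result. None of these 3 genes was listed in Tie2 KO against Tie2 WT. The values of Robo2 were 0.83 in Tie2 KO and 0.83 in Vav KO, and those of Ntn3 0.87 and 0.86, each against the same Tie2 WT samples, per the authors' deposited table.

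Most higher regions of the family covered a gene start and most lower ones did not, a difference that was not tested. Of the 30 regions with a rise over Tie2 WT in Tie2 KO, 20 covered the gene start (66.7%, against 55.6% of all higher regions), as did 18 of the 27 higher than in Vav KO (66.7%, against 43.8%). Of the 10 regions lower than in Vav KO, 1 covered it (10%, against 187 of 1560 in that list). The widths of the higher regions ran from 999 to 3699 bp in the first comparison. The 5 widest there, at Slit3, Plxna4, Unc5a, Sema5b and Plxnb1, were 3099 to 3699 bp wide and reached 1638 to 2490 bp past the start into the gene. Over all lists 36 regions lay upstream, of which 10 overlapped another RefSeq gene, 3 lay in the gene's own RefSeq body and 23 overlapped no gene. Among regions over a gene start, those of Epha5, Epha6, Epha10, Plxnb1, Robo1, Ntng2 and Slitrk5 overlapped another RefSeq gene as well.

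**Figure D3:**
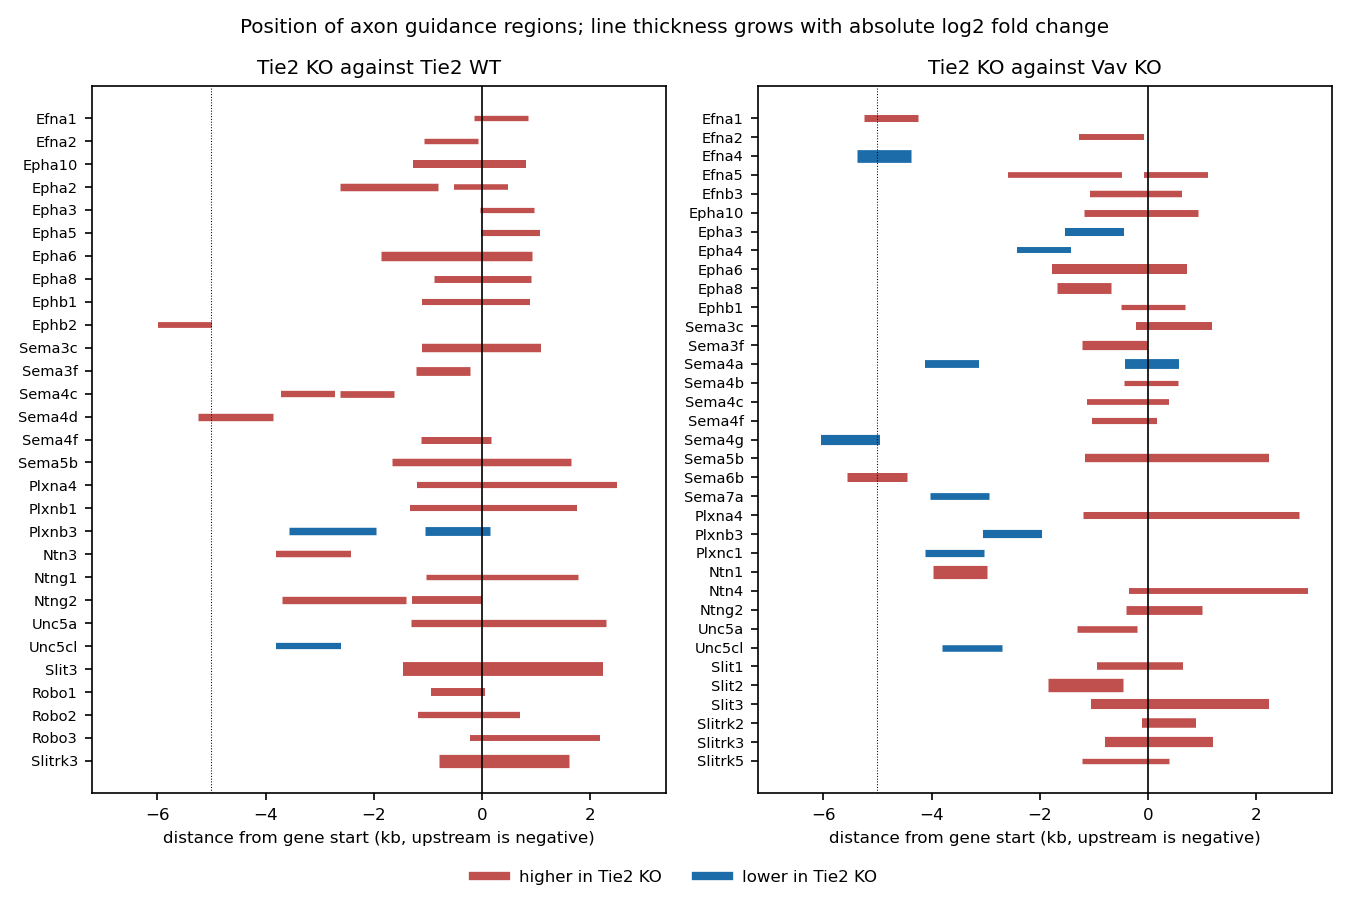
Extent of each region of the family genes around the gene start (x axis in kb, upstream negative) in both comparisons of Tie2 KO, red where higher and blue where lower in Tie2 KO, thicker with larger absolute log2 fold change; the dotted line marks 5 kb. Most red lines cross the start, while the blue ones lie upstream except at Plxnb3 (left) and Sema4a (right).

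**Figure D4:**
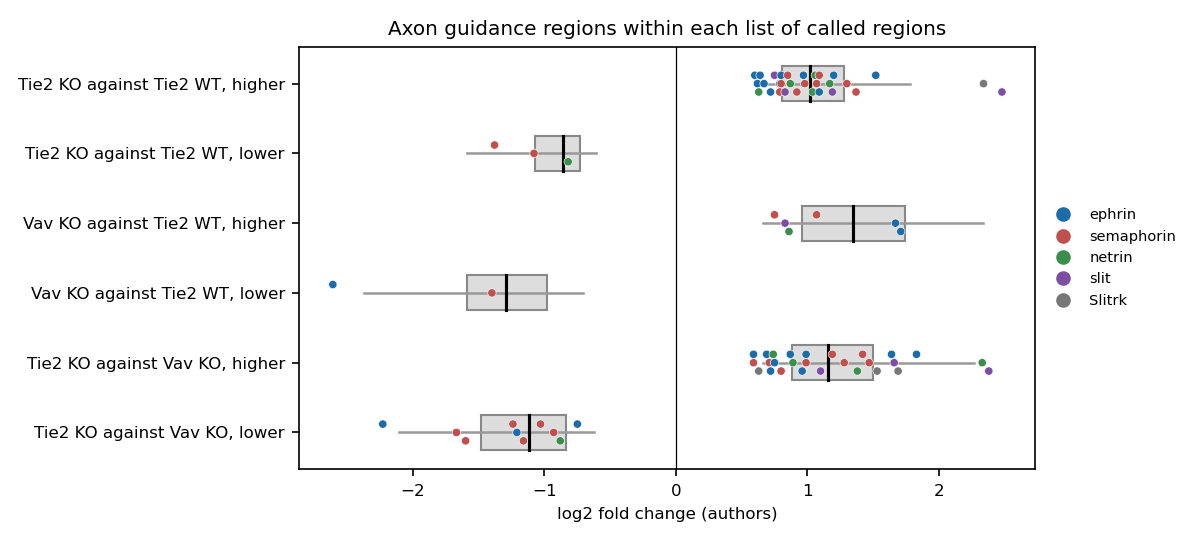
Log2 fold changes of the family regions (points, coloured by system) over the whole list they come from, with its median (black line), middle 50% (box) and 5% to 95% range (grey line). Most points lie within the range of their list, while Slit3 and Slitrk3 lie past its upper end and Epha3, Efna1 and Ntng1 past its lower end among regions with a rise over Tie2 WT in Tie2 KO.

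A further 74 genes of guidance signalling were counted the same way. In Tie2 KO against Tie2 WT 26 of them (35.1%) were higher and 0 lower, where all protein-coding genes gave 11.5% and 2.51%. By role these were 11 of 25 co-receptor and adhesion genes, 6 of 10 genes of other ligands and their receptors, and 9 of 39 effector genes. Nrp2, a co-receptor of class 3 semaphorins, stood at 1.41, Neo1, a netrin receptor, at 1.12 and Cntn2 at 1.63 per the authors' deposited table. Rgma, a Neo1 ligand, stood at 1.66 upstream and at 0.81 over its start per the authors' deposited table. Ntf3, a neurotrophin gene, stood at 1.74, and Draxin, which binds netrin and Dcc, at 0.81 per the authors' deposited table. Effectors included Enah at 1.41, Pak1 at 1.37 and Crmp1 at 0.96 upstream and 0.83 over its start per the authors' deposited table. In Tie2 KO against Vav KO 23 were higher (31.1%, where all genes gave 11.1%) and 2 lower (2.70%, where all genes gave 6.35%). The lower ones were Ngef, an exchange factor bound by Eph receptors, at -3.01 and Flrt1 at -1.67 per the authors' deposited table. In Vav KO against Tie2 WT 7 were higher (9.46%, where all genes gave 5.29%) and 1 lower (1.35%, where all genes gave 2.59%). The higher ones were Ablim1, Cxcr4, Dpysl5, Rgmb, Nrp2 at 1.23, Ntf3 at 1.22 and Pak1 at 0.91 per the authors' deposited table. The lower one was the tyrosine kinase gene Fes at -1.13 per the authors' deposited table.

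Marker genes of other cell types were listed in the same comparisons, in which 11.5% (Tie2 KO against Tie2 WT), 5.29% (Vav KO against Tie2 WT) and 11.1% (Tie2 KO against Vav KO) of all protein-coding genes were higher. The shares of all protein-coding genes lower in these comparisons were 2.51%, 2.59% and 6.35% in turn. In Tie2 KO against Tie2 WT, 9 of 10 mesenchymal, 6 of 10 neural or neural crest, 5 of 10 endothelial and 3 of 10 visceral endoderm marker genes lay near a higher region, and 1 endothelial gene, Pecam1, near a lower one. Of 10 progenitor markers such as Kit and Runx1, 0 were listed in either direction. In Vav KO against Tie2 WT the higher counts were 3, 1, 0 and 0 in the same order, and Pdgfra, Pax6 and Foxa2 were lower. Of the progenitor markers, Csf1r was higher there at 0.92 and Gata2 lower at -1.55 per the authors' deposited table. In Tie2 KO against Vav KO the higher counts were 6, 8, 5 and 3, with Gata2 higher at 0.92 and Csf1r lower at -1.33 per the authors' deposited table. In both Tie2 KO comparisons the higher endothelial genes include Tek, another name of Tie2, whose promoter drives Cre in Tie2 KO. Its regions stood at 2.9 against Tie2 WT and 2.92 against Vav KO per the authors' deposited table. They were 12899 and 12299 bp wide, each the widest of its list. Whether transgene DNA adds to these values was not tested. The part of the marker genes in the axon guidance counts was not tested either. Fewer or more cells of a type and a change within cells cannot be told apart in sorted bulk samples.

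CG content of the promoter windows varied widely among both listed and unlisted family genes. The measure is the number of CG times the window length over the product of C and G counts, where a base composition without CG loss gives about 1. Among 25 family genes higher in Tie2 KO against Tie2 WT that have a window the median was 0.664, and among 21 in no list it was 0.659. It was 0.785 among the 16 found only in another list, and 0.565 among the 9 family genes lower in Tie2 KO against Vav KO. All 17486 protein-coding genes with a window had a median of 0.576. Among them the median was 0.674 for genes higher in Tie2 KO against Tie2 WT and 0.496 for genes in no list. Family genes in no list thus had a higher median than all genes in no list, a difference that was not tested. Of the family genes higher in Tie2 KO against Tie2 WT 68% had a window at or above 0.6, a value chosen after the lists were seen. Of those in no list 57.1% did. The same shares of all protein-coding genes were 59.1% and 43.8%. Windows at or above 0.6 were near a higher region in 17 of 39 family genes (43.6%) and in 13.1% of all such protein-coding genes. Below it these were 8 of 23 family genes (34.8%) and 8.49% of all. Sema4d at 0.131 and Ntng2 at 0.275 were the lowest among higher genes, and Epha8 at 1.06 and Ntng1 at 1.06 the highest. Efnb3, Ntn1, Plxna1, Sema3b, Sema3f, Sema6a, Slit1, Unc5d, Plxna4 and Slitrk4 had no window in the table used.

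**Figure D5:**
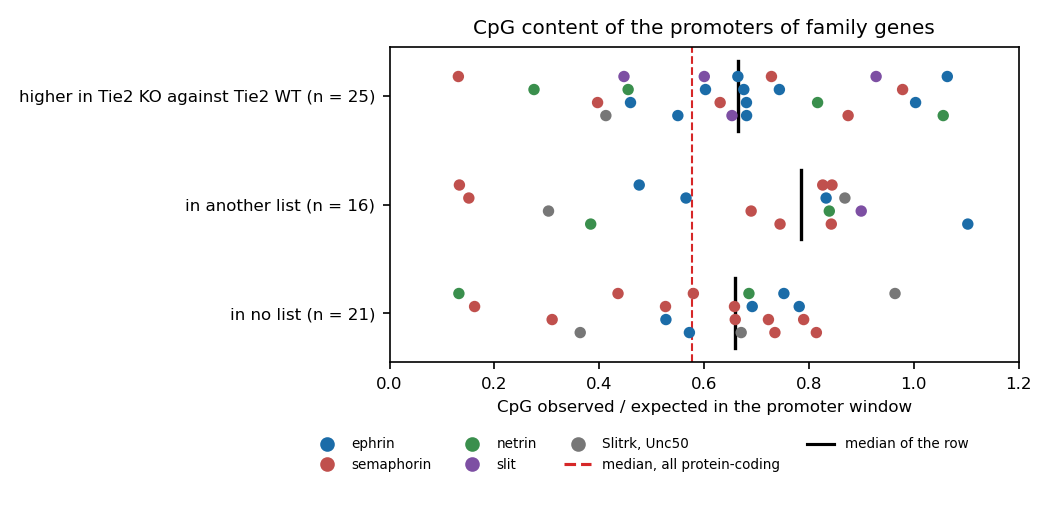
Observed over expected CG content of the RefSeq promoter windows (x axis) of 62 family genes, by whether they lay near a region higher in Tie2 KO against Tie2 WT, in another list or in no list; black lines are medians and the red dashed line is the median of all protein-coding genes. The spread of the rows overlaps almost wholly, from 0.131 to 1.06 in the top row and from 0.132 to 0.964 in the bottom row.

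The 25 family genes near no listed region were 13 semaphorin system genes, 5 ephrin system genes, 3 netrin system genes and 4 with the prefix alone. Of all 21900 protein-coding genes, 16034 were in no list. Of the secreted class 3 semaphorins, Sema3a, Sema3b, Sema3d, Sema3e and Sema3g were in no list, and Sema3c and Sema3f were listed. Of the transmembrane class 6, Sema6b was listed and Sema6a, Sema6c and Sema6d were not. Sema5a and the plexin genes Plxna2, Plxna3, Plxnb2 and Plxnd1 were also in no list. In the ephrin system these were Efna3, Efnb1, Epha1, Ephb3 and Ephb6, and in the netrin system Ntn5, Unc5c and Unc5d. No slit or Robo gene was without a listed region.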

How the data were processed

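The members, the gene lists and the promoter windows shown were chosen with earlier results of these data known. Each line of the deposited lists is 1 region, for which, per the file headers, the authors gave log2 fold change, adjusted p-value, width and distance to the gene, the last 2 in bp. The genome mm10 and the tools HOMER 4.10, MACS2 2.1.2, SAMtools 1.3.1, Bowtie2, Picard and FastQC come from the submitters' processing notes, which give no roles. For read shift, scaling and the test behind the p-values, the sources used here state nothing. The abbreviations in the list names were taken to mean Vav KO, Tie2 KO and Tie2 WT. Vav WT was not analysed here.

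Over all lists, absolute log2 fold changes began at 0.58, the largest adjusted p-value 0.0479 and the largest distance 4999 bp. Gene identifiers matched RefSeq genes of GRCm38.p6 in 10669 of 10679 lines. Counts of genes near a region were set beside all 21900 protein-coding genes of that table. A region paired with several genes counts for each, and 3 of the 78 family lines did so. The rule for genes given in full takes, in each comparison, the 3 largest absolute log2 fold changes of each system, genes with several regions and genes near a lower region in Tie2 KO against Tie2 WT. Other listed genes are named with fewer values. Unc50, taken by its prefix, was kept out of the netrin system, a choice made after the files were seen. No test was run here, since the lists hold no sample values. Alternatives were a log2 fold change of at least 1, an adjusted p of at most 0.01, a distance of at most 1000 bp, regions with 1 gene, and the family without Slitrk, Ntng and Unc5cl genes. Where a gene had several promoter windows, the first was used for CG content. Counting used Python 3.11.15 with pandas 2.3.3, and the name rule was checked on simulated data.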

Additional observations from a re-analysis of the deposited data

How the results depend on the processing

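Counts of family genes near a region were recomputed under 5 alternatives, and a count is called moved when it changed by more than 1.5 times. Each alternative only removes regions from lists already split by direction, so none could turn a direction, and an adjusted p of at most 0.01 could remove no family region. The percentages in brackets below are the shares of all protein-coding genes under the same alternative. With an absolute log2 fold change of at least 1, the genes near a higher region numbered 12 of 72 in Tie2 KO against Tie2 WT (6.21%). They numbered 13 in Tie2 KO against Vav KO (7.23%) and 3 in Vav KO against Tie2 WT (3.79%). Here 1 gene was lower in Tie2 KO against Tie2 WT (0.808%). By system the higher genes in Tie2 KO against Tie2 WT fell to 3 ephrin, 4 semaphorin, 2 netrin and 2 slit genes. The median log2 fold change of the higher regions became 1.53 in Tie2 KO against Vav KO and 1.67 in Vav KO against Tie2 WT, since this alternative drops the small values. With regions at the start or within 1000 bp, the lower genes numbered 1 in Tie2 KO against Tie2 WT (1.03%) and 2 in Tie2 KO against Vav KO (2.13%). In Vav KO against Tie2 WT 0 were lower (1.26%) and 2 higher (2.25%). With regions of 1 gene (2.15%), or without Slitrk, Ntng and Unc5cl (2.51%), 1 gene was lower in Tie2 KO against Tie2 WT. Without the Ntng genes and Unc5cl the netrin system had 2 higher genes in that comparison, among 4 netrin and 3 Unc5 receptor genes. All other values stayed within 1.5 times. No paired analysis was possible because the lists hold no value for a sample, and for the same reason no sample could be left out. Depth per sample is unknown.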
